A study of Homo sapiens with 8 samples.

Results

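The 55 genes described here make up the route from glucose to pyruvate, the switch that admits pyruvate to the mitochondrion, and the cellular response to low oxygen. They were taken by gene symbol from a list of glycolytic enzymes, pyruvate dehydrogenase control genes, hypoxia-inducible factor (HIF) genes and gluconeogenic enzymes. Of these 55 genes, 35 were among the 10446 genes listed for HUH7 and 23 among the 5475 listed for PLC/PRF/5, lists that hold 51.0% and, for PLC/PRF/5, 24.1% of protein-coding RefSeq genes. In all, 18 were listed in both lines, 17 in HUH7 alone, 5 in PLC/PRF/5 alone and 15 in neither.

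Both lines, HUH7 and PLC/PRF/5, were derived from human hepatocellular carcinomas. In each, CSTF2, a cleavage stimulation factor gene that acts in forming mRNA 3′ ends, was knocked out with CRISPR-Cas9, and the unedited parental line served as the control. m6A MeRIP-seq, which enriches RNA fragments carrying N6-methyladenosine with an antibody and sequences them beside an input, was run on CSTF2-knockout HUH7 cells, parental HUH7 cells, CSTF2-knockout PLC/PRF/5 cells and parental PLC/PRF/5 cells, with 1 IP and 1 input library each, 8 libraries in all. The labels do not say whether a knockout line was 1 clone or a pool, and name no treatment other than the knockout.

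The values are the authors' deposited log2 fold changes between knockout and parental cells, 1 per gene in HUH7 and 1 per peak in PLC/PRF/5. The headers do not say which genotype is on top of the ratio, nor whether RNA abundance was divided out. Values are therefore called positive or negative as deposited, with no direction toward the knockout. With 1 library per group there was no replicate and no test of any value. Sequencing depth is unknown, and neither positions nor p-values of peaks were used here. No expression level was analysed either, so the liver origin of the lines was not checked against marker genes.

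Glycolysis splits glucose into pyruvate and yields ATP without oxygen. Pyruvate is then either reduced to lactate or oxidised by the mitochondrial pyruvate dehydrogenase complex, which PDK kinases switch off and PDP phosphatases switch on. HIF transcription factors, whose alpha subunits are hydroxylated by the EGLN enzymes and degraded through VHL when oxygen is present, raise transcription of most glycolytic genes and of PDK1 in hypoxia. Hepatocytes also run the opposite route, gluconeogenesis, and liver tumours commonly favour glycolysis over it.

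In HUH7 the 4 listed pyruvate dehydrogenase control genes had large values, 2 of which are of the repeated kind described below. The values of the 7 listed HIF subunits and regulators were small. All 4 listed kinase and phosphatase genes, PDK1, PDK3, PDP1 and PDP2, were at a log2 fold change of at least 1 in size in the authors' deposited table. None of the 7 listed HIF subunits and regulators reached 1, and they ran from -0.30 to 0.75. Glycolytic enzymes lay between, with 6 of 11 at 1 or more in size, as did hypoxia targets, with 3 of 7. Both listed gluconeogenic enzymes (2 of 2) and 1 of 4 PFKFB enzymes also reached 1, all of them with repeated values. Over all listed members the count was 16 of 35 (45.7%), against 36.9% of the whole HUH7 column. The share over all members is close to that of the column, and the contrast between the roles was not tested, since genes of 1 comparison are not replicates.

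**Figure D1:**
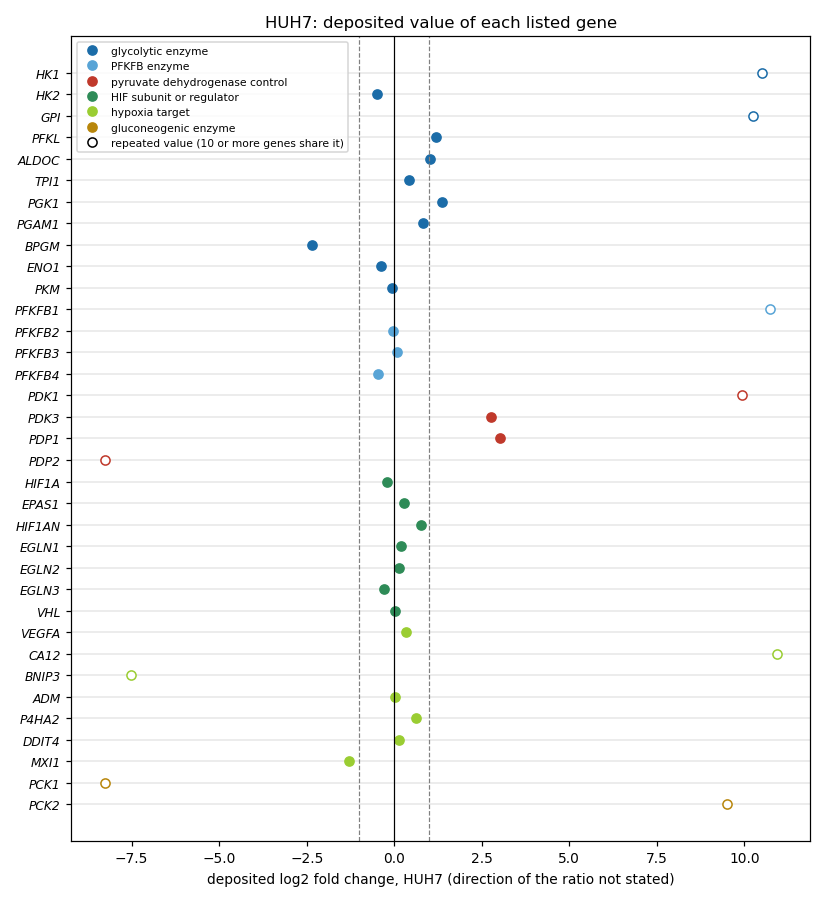
Deposited HUH7 log2 fold change (horizontal axis) of each of the 35 listed genes (1 row each), coloured by role; open circles are values shared by 10 or more genes, and dashed lines mark -1 and 1. The HIF subunits and regulators all sit between the dashed lines, and the 4 pyruvate dehydrogenase control genes all sit outside them.

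Part of the large values were not particular to their gene. In the HUH7 column 1315 genes (12.6%) held 1 of 16 values, each shared to 6 decimals by at least 53 genes, and 9 of the 35 members were among them. After taking the power of 2, the 8 positive values stood to each other as the whole numbers 3 to 10, and so did the 8 negative ones (all 1315 within 0.001 of a whole number when the smallest is set to 3). CA12 took step 8, PFKFB1 step 7, HK1 step 6, GPI step 5, PDK1 step 4 and PCK2 step 3 of the positive series. PDP2 and PCK1 took step 5 and BNIP3 step 3 of the negative series. What the steps count is not given in the sources used here. These 9 values are called repeated below, and their size ranks no gene against the others. Without them, 7 of 26 members reached a size of 1, next to 27.8% of the unrepeated values of the column. By role these were 2 of 2 pyruvate dehydrogenase control genes, 4 of 9 glycolytic enzymes, 1 of 5 hypoxia targets and 0 of 7 HIF subunits and regulators. The PFKFB enzymes gave 0 of 3, and no gluconeogenic enzyme had an unrepeated value.

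Signs of the members followed those of the column. In HUH7, 23 members were positive and 12 negative, 65.7% positive beside 60.8% of all genes, of which 39.1% were negative. Among unrepeated values it was 17 positive and 9 negative members, and 64.2% of the column was positive. The median over the members was 0.18, and that of the whole column 0.20. At 1 or more lay 11 of the 35 members, 6 of them with repeated values, beside 22.2% of the column. At -1 or less lay 5 of the 35, 3 of them with repeated values, beside 14.6% of the column.

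**Figure D2:**
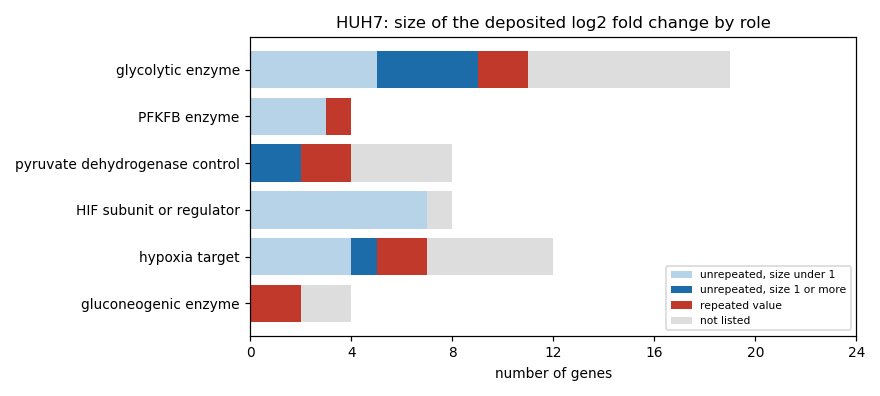
Number of genes (horizontal axis) in each role by the size of the deposited HUH7 log2 fold change, with repeated values and genes not listed as classes of their own. All 7 listed HIF subunits and regulators are unrepeated and under 1, while both listed gluconeogenic enzymes carry repeated values.

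HIF binds DNA at a hypoxia response element, whose core is most often ACGTG, and the members were searched for it in the RefSeq promoters of GRCh38.p14. The 250 bases before each annotated transcript start were read on both strands. Of 48 members with a RefSeq promoter, 28 (58.3%) held ACGTG before at least 1 of their starts, as did 25.3% of 15843 protein-coding genes. Counted by promoter, since members often have several starts, it was 31 of 78 (39.7%) against 20.2% of 22199. The list was built in part from known HIF targets, so these shares are no independent evidence about it. ACGTG also lies inside the E-box CACGTG, which MYC and USF proteins bind, and 13 of the 78 member promoters held that longer word (7.37% of all promoters).

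The core was present in 6 of 9 hypoxia targets, 13 of 19 glycolytic enzymes and 5 of 7 pyruvate dehydrogenase control genes. It was present in 2 of 7 HIF subunits and regulators, 1 of 3 PFKFB enzymes and 1 of 3 gluconeogenic enzymes. The share over all protein-coding genes was 25.3%. Among members with an absolute HUH7 value of 1 or more it was present in 9 of 14, and among those under 1 in 6 of 16. Among members not listed in HUH7 it was present in 13 of 18 (72.2%), the highest share of these classes. The class of 1 or more takes in repeated values, whose size ranks no gene. Of the 9 genes with the core, PDK1, PDP2, GPI and BNIP3 hold such values. The assay reads RNA and not promoters, so these counts describe the genes and are no measure of HIF binding. The 9 sequences below show the site of each of those 9 genes at 1 or more, 30 bases of the gene's strand from 5′ to 3′ with ACGTG or its reverse complement in capitals, at the copy nearest to a start.
PDK3 (chrX:24465213-24465242, plus strand): cgcgcgccgcgtACGTGcagcaaccgactc
PDK1 (chr2:172556060-172556089, plus strand): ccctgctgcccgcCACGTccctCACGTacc
PDP2 (chr16:66880307-66880336, plus strand): gcgatctcaggCACGTGactgcctggtcct
PGK1 (chrX:78104053-78104082, plus strand): aaacggaagccgCACGTctcactagtaccc
BPGM (chr7:134646794-134646823, plus strand): ctaggacctgccCACGTctggttcaggggc
GPI (chr19:34364818-34364847, plus strand): acactgcctgtaACGTGgaaggtgttcgat
ALDOC (chr17:28576906-28576935, minus strand): ccccggaggagtCACGTagctctgcgacat
BNIP3 (chr10:131982039-131982068, minus strand): cgcacgcgccgCACGTGccacacgcacccc
MXI1 (chr10:110210106-110210135, plus strand): gtggccaccagtCACGTaagcagagagccg
In PDP2 and BNIP3 the core is part of CACGTG, and in PDK1 a pair of cores stands within the 30 bases. For PDK1, GPI and MXI1 the start is not the most upstream of the gene and lies inside its annotated span.

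PDK3, a kinase that phosphorylates and switches off pyruvate dehydrogenase (chromosome X, 24465286 to 24550466, GRCh38.p14), had a log2 fold change of 2.76 in HUH7 in the authors' deposited table, at percentile 95.9 of the unrepeated values. PDP1, the phosphatase that reverses this step, had 3.03 in the authors' deposited table, at percentile 96.8. It was the highest unrepeated value of all members. These opposing enzymes thus had values of the same sign, and of similar size, in HUH7. On the linear scale the authors' deposited values correspond to ratios of 6.77 for PDK3 and 8.18 for PDP1.

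The remaining control genes held repeated values or were not listed in HUH7. PDK1, the kinase best known as a HIF target (chromosome 2, 172555373 to 172724312), had 9.92 in the authors' deposited table, a value that 60 genes shared. PDP2, the second phosphatase (chromosome 16, 66880515 to 66891101), had -8.27 in the authors' deposited table, shared by 103 genes. The phosphatases PDP1 and PDP2 therefore stood on opposite sides of 0. PDK2, PDK4 and the genes of the complex's own catalytic subunits, PDHA1 and PDHB, were not listed in HUH7.

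Among the enzymes of the glycolytic chain, HUH7 values above 1 were spread over its steps. PFKL, the liver form of phosphofructokinase, which commits sugar phosphate to glycolysis, had 1.20 in the authors' deposited table. The aldolase gene ALDOC, which splits the sugar, had 1.03 in the authors' deposited table. PGK1, which makes ATP (chromosome X, 78104248 to 78129295), had 1.37 in the authors' deposited table, the highest unrepeated value of the glycolytic enzymes, at percentile 86.4. PFKL and ALDOC lay at percentiles 83.6 and 80.6 of the unrepeated values.

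BPGM stood apart on the negative side. It makes the bisphosphoglycerate that lowers the oxygen affinity of haemoglobin in red cells, by a branch that bypasses the PGK1 step (chromosome 7, 134646853 to 134679816). Its HUH7 value was -2.35 in the authors' deposited table, at percentile 1.6 of the unrepeated values and the lowest unrepeated value of all members. PGK1 and BPGM, which draw on the same substrate, had values of opposite sign.

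The remaining enzymes were within 1 in HUH7, apart from the repeated values of HK1 and GPI. PGAM1, the mutase after PGK1, had 0.82, and TPI1, which interconverts the triose phosphates, had 0.41 in the authors' deposited table. The enolase gene ENO1 had -0.39 and the pyruvate kinase gene PKM -0.05 in the authors' deposited table. Of the genes of hexokinase, which traps glucose in the cell, HK2, the form that tumours commonly induce, had -0.49 in the authors' deposited table. HK1 had the repeated value 10.50, shared by 67 genes, so the hexokinase genes were not compared by size. GPI, the isomerase after hexokinase, had the repeated value 10.24 in the authors' deposited table. PFKM, PFKP, ALDOA, GAPDH, ENO2, PKLR, LDHA and LDHB were not listed in HUH7.

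The 4 PFKFB enzymes set the level of the sugar bisphosphate that activates phosphofructokinase, and all 4 were listed in HUH7. PFKFB3, the form with the strongest kinase activity, had 0.09 in the authors' deposited table. PFKFB2 had -0.04 and PFKFB4 -0.45 in the authors' deposited table. PFKFB1, the liver and muscle form, held the repeated value 10.73 in the authors' deposited table, shared by 62 genes. Of the unrepeated values, PFKFB2 and PFKFB3 lay at percentiles 33.5 and 41.7 and PFKFB4 at percentile 16.9.

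Gluconeogenesis was represented by PCK1 and PCK2, the cytosolic and mitochondrial enzymes that turn oxaloacetate into phosphoenolpyruvate. PCK1 had -8.27 and PCK2 9.50 in HUH7 in the authors' deposited table. Both are repeated values, of opposite sign. G6PC1 and FBP1, which catalyse the last steps that bypass glycolysis, were listed in neither line.

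The listed genes of the oxygen sensor were all under 1 in size in HUH7. HIF1A, the main oxygen-regulated subunit (chromosome 14, 61695513 to 61748258), had -0.22, and EPAS1, which encodes the HIF alpha subunit prominent in the response of liver and endothelium, had 0.27 in the authors' deposited table. The prolyl hydroxylase genes EGLN1 (0.18), EGLN2 (0.15) and EGLN3 (-0.30), whose products mark the alpha subunits for destruction, were on either side of 0 in the authors' deposited table. VHL, which recognises the hydroxylated subunits, had 0.01 in the authors' deposited table. HIF1AN, the asparaginyl hydroxylase that blocks coactivator binding, had the largest size of the group, 0.75, in the authors' deposited table, at percentile 73.3. The median of the 7 was 0.15, and the unrepeated values of the column had quartiles of -0.21 and 0.81. ARNT, the constant partner of the alpha subunits, was not listed in either line.

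Hypoxia targets had values of both signs in HUH7. VEGFA, the angiogenic growth factor, had 0.34, DDIT4, an inhibitor of mTOR signalling, 0.14, and ADM, the vasodilator peptide adrenomedullin, 0.02 in the authors' deposited table. P4HA2, a collagen prolyl hydroxylase subunit, had 0.63 in the authors' deposited table. MXI1, a MAX partner that opposes MYC, had -1.28 in the authors' deposited table, at percentile 5.4, and was the only unrepeated target at a size of 1 or more. CA12, a membrane carbonic anhydrase, had the repeated value 10.92, and BNIP3, a mitophagy receptor, the repeated value -7.53 in the authors' deposited table. CA9, ANKRD37, NDRG1, BNIP3L and P4HA1 were not listed in HUH7.

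In PLC/PRF/5 the members had 38 peaks in 23 genes, and the authors' deposited table placed them between -2.03 and 12.16. By the median of a gene's peaks, 18 of the 23 members were positive, beside 90.3% of all genes. The other 5 of 23 were negative, a larger share than the 9.70% of all genes, and PCK2 (-0.07) among them was near 0. This difference was not tested. By peak, 29 were positive and 9 negative, 76.3% positive beside 86.0% of the column. The median peak of the members was 5.74, and that of all peaks 5.44. The PLC/PRF/5 column was filled evenly over its range: cut into 15 bins of unit width between -2 and 13, it gave 599 to 655 of its 9516 peaks to every bin. Large values were thus as frequent as small ones, and the size of a peak in this line does not set its gene apart.

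**Figure D3:**
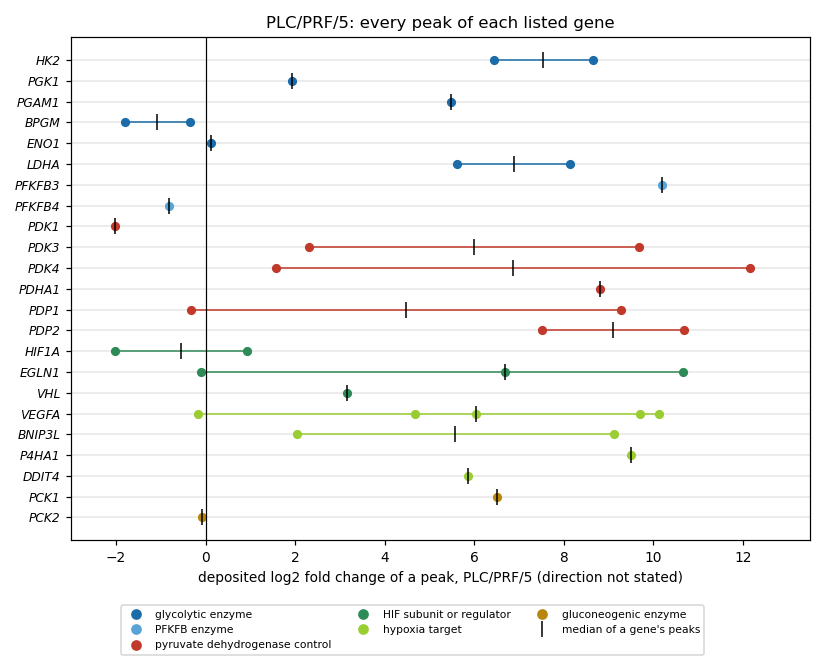
Deposited log2 fold change (horizontal axis) of every PLC/PRF/5 peak of the 23 listed genes, coloured by role, with the range as a line and the median as a black tick. The range is wide in PDK4 and PDP1 (2 peaks each), EGLN1 (3 peaks) and VEGFA (5 peaks), and narrower in BPGM and HK2 (2 peaks each).

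**Figure D4:**
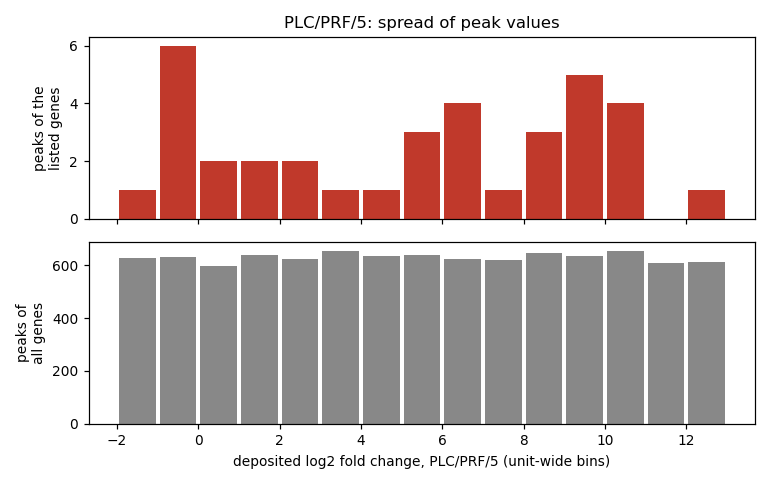
Number of peaks (vertical axes) per unit-wide bin of the deposited PLC/PRF/5 log2 fold change (horizontal axis), for the listed genes above and for all genes below; 2 peaks of the listed genes and 66 of all genes lie below -2 and are not drawn. The column as a whole is level at 599 to 655 peaks a bin, and the bins of the listed genes hold 0 to 6.

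The distance between peaks of the same gene varied among the members. VEGFA had the most peaks of the members, 5, at -0.17, 4.67, 6.04, 9.71 and 10.11 in the authors' deposited table. EGLN1 had 3, at -0.10, 6.69 and 10.65 in the authors' deposited table. Of the 11 members with 2 or more peaks, 6 had positive peaks throughout, BPGM had negative peaks throughout and 4 (PDP1, HIF1A, EGLN1 and VEGFA) had both signs, beside 33.2% of all such genes. Over the 9 members with exactly 2 peaks the distance between them ran from 1.47 to 10.58 with a median of 3.18, and over all 1273 such genes the median was 4.35. Which part of the transcript each peak covers was not analysed here.

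Pyruvate dehydrogenase control was the most fully listed role in PLC/PRF/5, with 10 peaks in 6 of 8 genes. Of all members 23 of 55 were listed, and of protein-coding RefSeq genes 24.1%. The difference between roles was not tested. PDK4, the kinase induced by fasting, had peaks at 1.58 and 12.16, and PDK3 at 2.31 and 9.68 in the authors' deposited table. PDK1 had a single peak at -2.03, the lowest of all member peaks, in the authors' deposited table. The phosphatase genes had peaks at -0.32 and 9.29 (PDP1) and at 7.51 and 10.69 (PDP2) in the authors' deposited table. PDHA1, the catalytic alpha subunit, had 1 peak at 8.82 in the authors' deposited table. The kinases thus covered nearly the whole range of the column.

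Of the 19 glycolytic enzymes, 6 were listed in PLC/PRF/5, with 7 positive and 2 negative peaks (77.8% positive, beside 86.0% of all peaks). HK2 had peaks at 6.45 and 8.64, and LDHA, which turns pyruvate into lactate, at 5.62 and 8.13 in the authors' deposited table. PGK1 had 1.93, PGAM1 5.48 and ENO1 0.13 in the authors' deposited table. BPGM was the single glycolytic gene with negative peaks, at -1.81 and -0.34 in the authors' deposited table. Of the PFKFB genes, PFKFB3 had 10.19 and PFKFB4 -0.82 in the authors' deposited table.

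In PLC/PRF/5 the peaks of HIF1A were at -2.02 and 0.93 in the authors' deposited table, and its median of -0.55 was negative. VHL had 3.15 in the authors' deposited table. Among the targets, the collagen hydroxylase gene P4HA1 had 9.49, DDIT4 5.86 and the mitophagy receptor gene BNIP3L 2.04 and 9.12 in the authors' deposited table. With VEGFA, all 4 listed hypoxia targets had a positive median, as had 90.3% of all genes. PCK1 had 6.51 and PCK2 -0.07 in the authors' deposited table.

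The lines could be set side by side for 18 members, and 12 had the same sign in both (66.7%), beside 56.8% of the 3926 shared genes with a value other than 0 in both. The other 6 had opposite signs (43.2% of those genes). This assumes that both columns put the same genotype on top, which is not stated. By the PLC/PRF/5 median, PGK1, PGAM1, PFKFB3, PDK3, PDP1, EGLN1, VHL, VEGFA and DDIT4 of the 12 were positive in both lines. BPGM, PFKFB4 and HIF1A were negative in both. Of these, PDP1, EGLN1, VEGFA and HIF1A had PLC/PRF/5 peaks of both signs, so their sign there is only that of the median. The 14 members with unrepeated HUH7 values gave all 12 (58.8% of all such genes had the same sign). The 4 members with repeated HUH7 values gave none (37.7% of all such genes). In PLC/PRF/5 90.3% of all genes had a positive median, so these counts depend largely on the sign in HUH7. Of the 1315 repeated HUH7 values, 824 were negative. Of the 12 members, VHL (0.01), PFKFB3 (0.09), DDIT4 (0.14) and EGLN1 (0.18) were near 0 in HUH7. Whether the lines agreed beyond this was not tested.

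**Figure D5:**
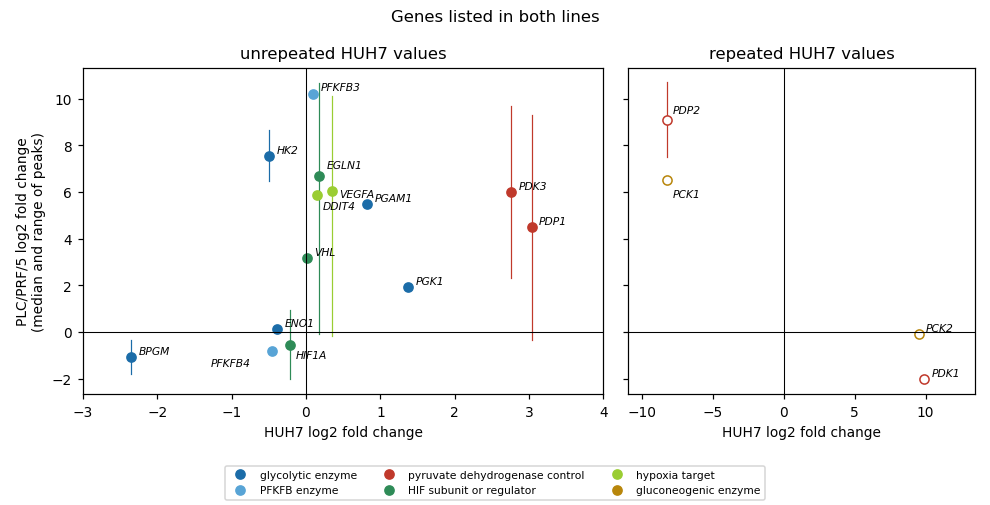
HUH7 log2 fold change (horizontal axis) against the PLC/PRF/5 median (points) and range of peaks (lines) of the 18 genes listed in both lines, with unrepeated HUH7 values on the left and repeated ones, on a wider axis, on the right. On the left 12 of 14 genes lie in the quadrants of equal sign, with HK2 and ENO1 as the exceptions, and on the right none of 4 does.

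BPGM, PDK3 and PGK1 were the members with an unrepeated HUH7 value of 1 or more in size whose PLC/PRF/5 peaks all had the same sign. BPGM had -2.35 in HUH7 and, by peak in PLC/PRF/5, -1.81 and -0.34 in the authors' deposited table. PDK3 had 2.76 in HUH7 and, by peak in PLC/PRF/5, 2.31 and 9.68 in the authors' deposited table. PGK1 had 1.37 and 1.93 in the authors' deposited table. For BPGM the negative sign is the rarer in PLC/PRF/5, where 14.0% of peaks were negative.

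Other genes of these pathways, 51 in all, were taken from a list that was fixed with earlier results of the data known. In HUH7, 37 were listed, 23 positive (62.2%, beside 60.8% of the column) and 14 negative, and 12 reached 1 in size (32.4%, beside 36.9% of the column). Their median was 0.21, beside 0.20 for the column. Of the pyruvate dehydrogenase complex genes, DLAT, the acetyltransferase core, had 1.15 at percentile 82.8, and the repeated values of PDHX, which binds the dehydrogenase DLD to the core, and of DLD were -9.11 and -7.94 in the authors' deposited table. PDPR, which regulates the phosphatase, had 0.45 in the authors' deposited table.

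Transport and target genes held the largest unrepeated values of this wider list in HUH7. TFRC, the transferrin receptor, had 4.21, SLC2A1, the glucose transporter of most tumours, 2.66, and AK4, a mitochondrial adenylate kinase, 2.13 in the authors' deposited table. ERO1A, the oxidase of disulfide formation, had -2.07 in the authors' deposited table. The haem oxygenase gene HMOX1 (1.10) and the demethylase gene KDM4B (1.08) were just above 1 in the authors' deposited table. The lactate and pyruvate carriers stayed near 0, with 0.21 for SLC16A3, -0.05 for SLC16A1, 0.38 for MPC1 and 0.47 for MPC2 in the authors' deposited table. The repeated values of the list were those of TIGAR (10.92), RBX1 (10.73) and LOXL2 (-8.75), beside PDHX and DLD, in the authors' deposited table.

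In PLC/PRF/5 the wider list had 37 peaks in 16 genes, 30 positive and 7 negative (81.1% positive, beside 86.0% of all peaks). TFRC had peaks at -2.04, 1.74, 7.45 and 11.84, and ERO1A at 3.15, 4.70, 7.97 and 11.44 in the authors' deposited table. The HIF coactivator EP300 had -0.44, 0.18, 6.73 and 10.85 and its paralogue CREBBP -1.77, 1.78 and 7.57 in the authors' deposited table. SLC2A3, a neuronal and tumour glucose transporter, had 0.68, 2.89 and 12.87 in the authors' deposited table. Peaks of SLC16A1 lay closer together, at 6.75 and 8.18, and those of KDM3A at -0.88, -0.32 and 2.43 in the authors' deposited table. Here too the distance between peaks differed from gene to gene.

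The remaining values of the wider list's genes found in both lines were of either sign. The demethylase gene KDM3A had 0.87 in HUH7, and HILPDA, a lipid droplet protein gene, 0.20 with a PLC/PRF/5 peak at 0.09 in the authors' deposited table. CITED2, which competes with HIF for its coactivators, had -0.20 in HUH7 with a PLC/PRF/5 peak at 5.43 in the authors' deposited table. The transcription factor gene BHLHE40 had -0.12 in HUH7 and PLC/PRF/5 peaks at 0.78 and 11.03, and ZNF395 had -0.14 in HUH7 and a PLC/PRF/5 peak at 6.91 in the authors' deposited table. In PLC/PRF/5, AK4 had peaks at -1.10, 7.94 and 8.39, HMOX1 a peak at -1.41 and DLAT a peak at 0.51 in the authors' deposited table. DLD had a peak at 2.04, and PDHX peaks at 6.07, 7.62 and 11.43, opposite in sign to their repeated HUH7 values, in the authors' deposited table. EP300 had 0.14 and CREBBP -0.68 in HUH7 in the authors' deposited table.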

How the data were processed

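RNA of 8 libraries, 1 for each combination of cell line, genotype and IP or input, was measured by the authors with m6A MeRIP-seq. Per the labels' protocols, poly(A) RNA was fragmented, immunoprecipitated and primed with random hexamers. The deposited values are log2 fold changes, per the file headers. FastQC 0.12.0 and build hg38 are named in the submitters' processing notes; the aligner, peak caller, scaling and filters, not given in the sources used here, are unknown. Depth is unknown.

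From the deposited table, gene names were brought to current symbols with RefSeq GRCh38.p14 (all 55 members matched by symbol). A HUH7 value was called repeated when its size exceeded 1 and at least 10 genes held it, compared to 6 decimals. PLC/PRF/5 genes took the median of their peaks. Percentiles are of the unrepeated HUH7 values. Promoter sequences are from RefSeq. Counts and medians were computed with Python 3.11.15 and pandas 2.3.3. Of the rules, only those for repeated values and gene names were tested on simulated data. No test was run, since each group held 1 library. Every member could be named; other pathway genes were named when past an absolute log2 fold change of 1 in HUH7 or listed in both lines, and SLC16A3, MPC1, MPC2, PDPR and SLC2A3 outside that rule, after their values were seen. Members and lists were chosen with earlier results of these data known. Alternatives left out repeated values, kept names as given, required a size of 1 or took the largest peak.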

Additional observations from a re-analysis of the deposited data

Results flagged for a closer look

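Among the 18 genes listed in both lines, 6 had an HUH7 value of one sign and PLC/PRF/5 peaks all of the opposite sign. The difference between the lines was not tested, since each line gives 1 comparison, and it assumes that both columns use the same direction. HK2 had -0.49 in HUH7, against 6.45 and 8.64 in PLC/PRF/5, and ENO1 had -0.39 against 0.13 in the authors' deposited table. PDK1 had 9.92 in HUH7 against -2.03 in PLC/PRF/5, and PDP2 -8.27 against 7.51 and 10.69 in the authors' deposited table. PCK1 had -8.27 in HUH7 against 6.51 in PLC/PRF/5, and PCK2 9.50 against -0.07 in the authors' deposited table. The HUH7 values of PDK1, PDP2, PCK1 and PCK2 are repeated ones. In PLC/PRF/5, ENO1, PDK1, PCK1 and PCK2 had only 1 peak each, and those of ENO1 and PCK2 were near 0. HK2, ENO1, PDP2 and PCK1 were negative in HUH7, while 90.3% of all genes had a positive median in PLC/PRF/5. Over all shared genes with a value other than 0 in both lines, 43.2% had opposite signs by the median of the peaks. That is a looser rule than the one met by the 6 members, and no share of all genes was computed under theirs.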

How the results depend on the processing

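Without repeated values, the HUH7 members of size 1 or more numbered 7 in place of 16, their median was 0.15 in place of 0.18, and members of opposite sign in the lines numbered 2 in place of 6. Counting only sizes of 1 or more left 11 positive and 5 negative members in HUH7, 2 negative members in PLC/PRF/5, and 4 members of the same and 3 of opposite sign in the lines. Counting every peak gave 29 positive and 9 negative with a median of 5.74 in PLC/PRF/5, in place of 18 and 5 genes with a median of 5.86. The peak of largest absolute value gave a median of 8.13. The other alternatives run left each count within 1.5 times its main value, and names as given changed none. No paired analysis was possible because each group held 1 library and the table gives no values per library. Depth is unknown, so what it limits could not be given.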
